A study of Rattus norvegicus with 232 samples.

Results

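LEXF10A/Stm and LEXF10B/Stm are inbred rat strains of the FXLE/LEXF recombinant inbred (RI) family that share a number and differ in a letter, and their brain RNA was compared here. Every library carrying either strain label in the table of RefSeq genes was taken, which gave 3 animals of LEXF10A and 3 of LEXF10B, with 1 library each, out of 214 libraries of 197 animals from 74 strains. Its progenitors are the inbred strains LE/Stm and F344/Stm. The rats were untreated and naive to alcohol and drugs, the series describes its animals as males, and total RNA of brain, labelled as whole brain, was sequenced on a strand-specific protocol after depletion of ribosomal RNA. No age was given with the labels of these 6 animals.

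In an RI family, brothers and sisters of a cross between 2 inbred progenitors are mated for many generations, so that each strain fixes its own mosaic of the progenitor genomes. Sublines are lines that were bred apart from a common stock. They can differ where the stock still carried both progenitor alleles at the time of separation and at mutations that arose later. No genotypes were used here, and the common origin of the LEXF10 lines is taken from their names.

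Strain and sequencing batch were fully confounded. LEXF10A replicates 1 and 2 were sequenced in batch 15 and replicate 3 in batch 16, while LEXF10B replicates 1, 2 and 3 were sequenced in batches 18, 19 and 20. No batch held both strains, so that no within-batch difference can be given. A bridge was available in animal 4 of SHR/OlaIpcv, an inbred strain outside this RI family, which had 1 library in each of batches 15 to 20. The difference between its batches 15 and 16 and its batches 18 to 20 was used to judge what batch alone did, with each library of a period weighted equally. In a further fit a difference weighted like the animals, in which batch 15 counted 2 times as much as batch 16, was subtracted from the subline difference. This bridge rests on 1 animal.

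Values are on the authors' log2 scale, and differences are given as LEXF10A minus LEXF10B with the standard error (SE) of the model. The deposited tables hold no read counts, so that the depth of each library is unknown and the number of animals limits the precision. Library medians of all 214 libraries lay between 8.18 and 8.42. Neuron, astrocyte and myelin markers were abundant in all 6 brains (the mean of 10 neuron markers ranged from 13.72 to 13.76 in LEXF10A and from 13.71 to 13.91 in LEXF10B). The Y-linked genes Eif2s3y, Kdm5d and Uty were above 10 in each of the 6 libraries. A component was taken from the 5000 features that varied most within strains, and it described 22.8% of their within-strain variance. On it the LEXF10A animals scored 0.64, 1.61 and 1.65 standard deviations and the LEXF10B animals -0.42, 0.01 and 0.62. SHR animal 4 scored 1.89 in batch 15 and between -0.10 and 0.91 in its other batches.

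Of 20856 features tested, 47 passed a 5% false discovery rate (FDR; limma, Benjamini-Hochberg adjustment), which is 0.225% of the table. At an unadjusted p under 0.05 there were 1901 features (9.11%). The count of 47 was 30 without LEXF10A replicate 3 and 31 without LEXF10B replicate 3. Of the 47, 23 were higher in LEXF10A (0.11% of the table) and 24 were lower (0.115%). The differences between the means ranged from 1.23-fold to 9.41-fold with a median of 1.92-fold, and 22 of the 47 exceeded 1 on the log2 scale. At all 47 the 3 values of LEXF10A lay apart from the 3 values of LEXF10B, as they did at 16.8% of all features. The median absolute difference was 0.94 among the 47 and 0.10 over all features. Just inside the threshold was Acer2 with an adjusted p of 0.0499, and just outside it was Ccdc42 with 0.0577.

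In SHR animal 4 no feature passed the 5% FDR between batches 15 and 16 and batches 18 to 20 (0 of 20856, 0%; limma, 954 at an unadjusted p under 0.05). The smallest adjusted p was 0.889. This test set 5 single libraries of 1 animal against the spread between animals, which overstates the spread of such libraries. The lack of calls therefore does not show that batch had no effect. The median absolute difference of SHR animal 4 over all features was 0.10, as large as that between the sublines. At 26 of the 47, SHR animal 4 moved in the opposite direction to the sublines. Only Ak1 and Fbln2 moved in the same direction by more than 50% of the subline difference. With batch as a covariate and the animal as a random block, 38 features passed (0.182%), of which 28 were among the 47. With the SHR animal 4 difference subtracted, 13 features passed (0.0623%), and all 13 were among the 47. All 47 kept their direction in both of these fits. They were chosen for their subline differences, which by itself favours a kept direction. At the 47 the median absolute difference was 0.94 between the sublines and 0.14 in SHR animal 4. Apart from SHR/OlaIpcv, no strain had libraries both in batches 18 to 20 and in an earlier batch. The fit with batch as a covariate therefore also compares the periods through SHR libraries. These fits are not independent checks on batch. The subtracted fit carries the error of 5 single SHR libraries in addition to that of the 6 animals.

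**Figure D1:**
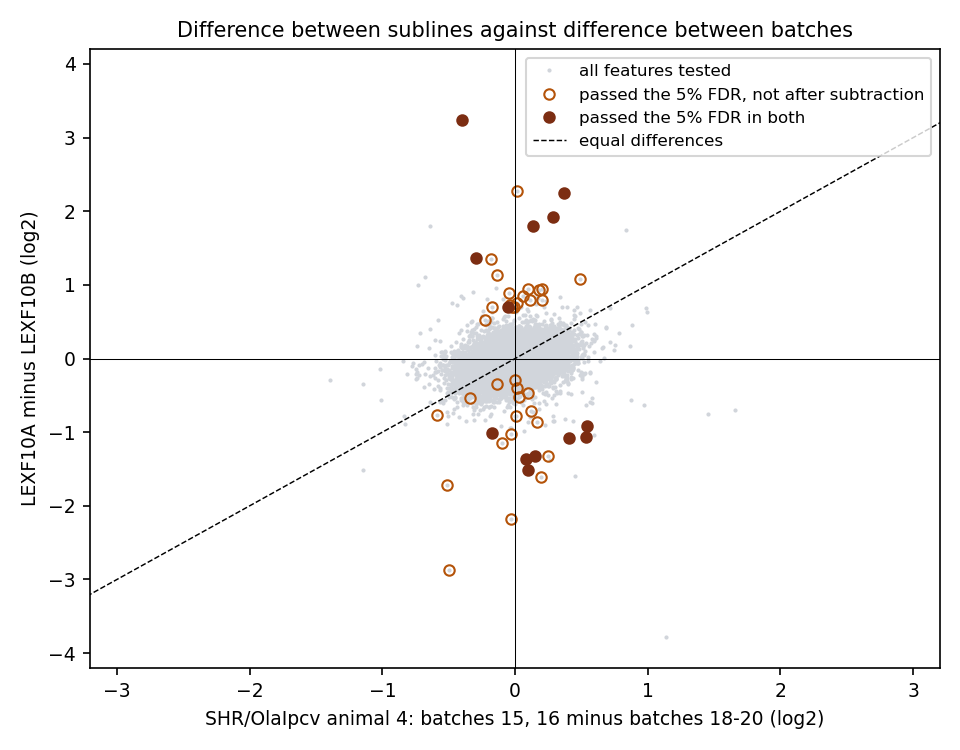
Difference between LEXF10A and LEXF10B (vertical axis, log2) against the difference between batches 15 and 16 and batches 18 to 20 in SHR/OlaIpcv animal 4 (horizontal axis, log2), with 1 point a feature. Filled circles are the 13 features that passed the 5% FDR in both fits and open circles the other 34 of the 47. Both were chosen by their value on the vertical axis, and the cloud of all features (grey) is about as wide as it is high.

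Among genes with a symbol and a mean above the table's median, those that held in both batch fits were Rpl30 and Anxa6, higher in LEXF10A, and Aox1 and Tuba1c, lower in LEXF10A. These 4 met the rule for named genes, which required a pass in the main fit and in both batch fits with no overlap between the animals. Both batch fits rest on SHR libraries, so that a pass in both is not a pass in separate batch checks.

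Anxa6 encodes annexin A6, which binds phospholipid membranes in the presence of calcium. It lies on chr10:39101388-39156453 on the minus strand in the deposited annotation, whose genome build is not given for this table version in the sources used here. Its level was 12.48, 12.29 and 12.41 in LEXF10A and 11.84, 11.54 and 11.70 in LEXF10B. All LEXF10A animals were thus above all LEXF10B animals, by 0.70 (SE 0.11, adjusted p = 1.95e-05). In SHR animal 4 the values were 12.05 and 12.45 in batches 15 and 16 and 12.28, 12.28 and 12.36 in batches 18 to 20, without a separation by batch. The difference was 0.82 after subtraction (adjusted p = 0.0193). LEXF10B had the lowest Anxa6 mean of the 19 family strains, at 11.69 against 11.77 to 12.51 in the other 17 strains.

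Aox1 encodes aldehyde oxidase, a molybdenum-containing flavoenzyme that oxidises aldehydes and nitrogen heterocycles. Values were 7.94, 7.85 and 7.73 in LEXF10A and 8.94, 8.73 and 8.91 in LEXF10B. It was lower in LEXF10A by a difference of -1.02 (SE 0.11, adjusted p = 1.83e-11), which is 2.02-fold. SHR animal 4 moved in the same direction by a smaller step, with 8.71 and 8.69 in batches 15 and 16 and 8.84, 8.83 and 8.97 in batches 18 to 20. The subtracted difference was -0.84 (adjusted p = 0.0133). LEXF10A had the lowest mean of the family, whereas LEXF10B ranked 4 of 19 from the highest.

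Tuba1c encodes an alpha-tubulin, a subunit of microtubules, on chr7:130192050-130199655 of the plus strand in the same annotation. Levels of 8.44, 8.24 and 8.46 in LEXF10A stood against 9.55, 9.12 and 9.22 in LEXF10B. The groups did not overlap and differed by -0.91 (SE 0.20, adjusted p = 0.00964). SHR animal 4 moved the other way, with 8.31 and 8.49 in batches 15 and 16 and 7.93, 7.75 and 7.92 in batches 18 to 20, so that the subtracted difference was larger, at -1.42 (adjusted p = 0.0264). Without LEXF10A replicate 2 or without LEXF10B replicate 1 the call was lost, with an adjusted p of up to 0.211.

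Rpl30 encodes a protein of the large ribosomal subunit, on chr7:65648470-65651363 of the minus strand. It measured 11.51, 11.68 and 11.87 in LEXF10A and 10.54, 10.51 and 9.90 in LEXF10B. The difference was 1.37 (SE 0.20, adjusted p = 1.08e-06), and 1.56 after subtraction (adjusted p = 0.00648). LEXF10B held the lowest mean of the family, at 10.32, close to LEXF7B (10.37) and LEXF9 (10.53, 1 animal). LOC100362027, which RefSeq names Rpl30l2 and which resembles Rpl30, went in the opposite direction. It measured 5.28, 5.80 and 5.83 in LEXF10A and 7.31, 7.79 and 8.35 in LEXF10B, a difference of -2.18 (SE 0.53, adjusted p = 0.0334), and LEXF10B had the highest mean of the family (7.82), followed by LEXF7B (7.56) and LEXF9 (6.64). Its call was lost with batch as a covariate (adjusted p = 0.166). Reads can be shared between Rpl30 and its copies, so that the level of either gene is uncertain.

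**Figure D2:**
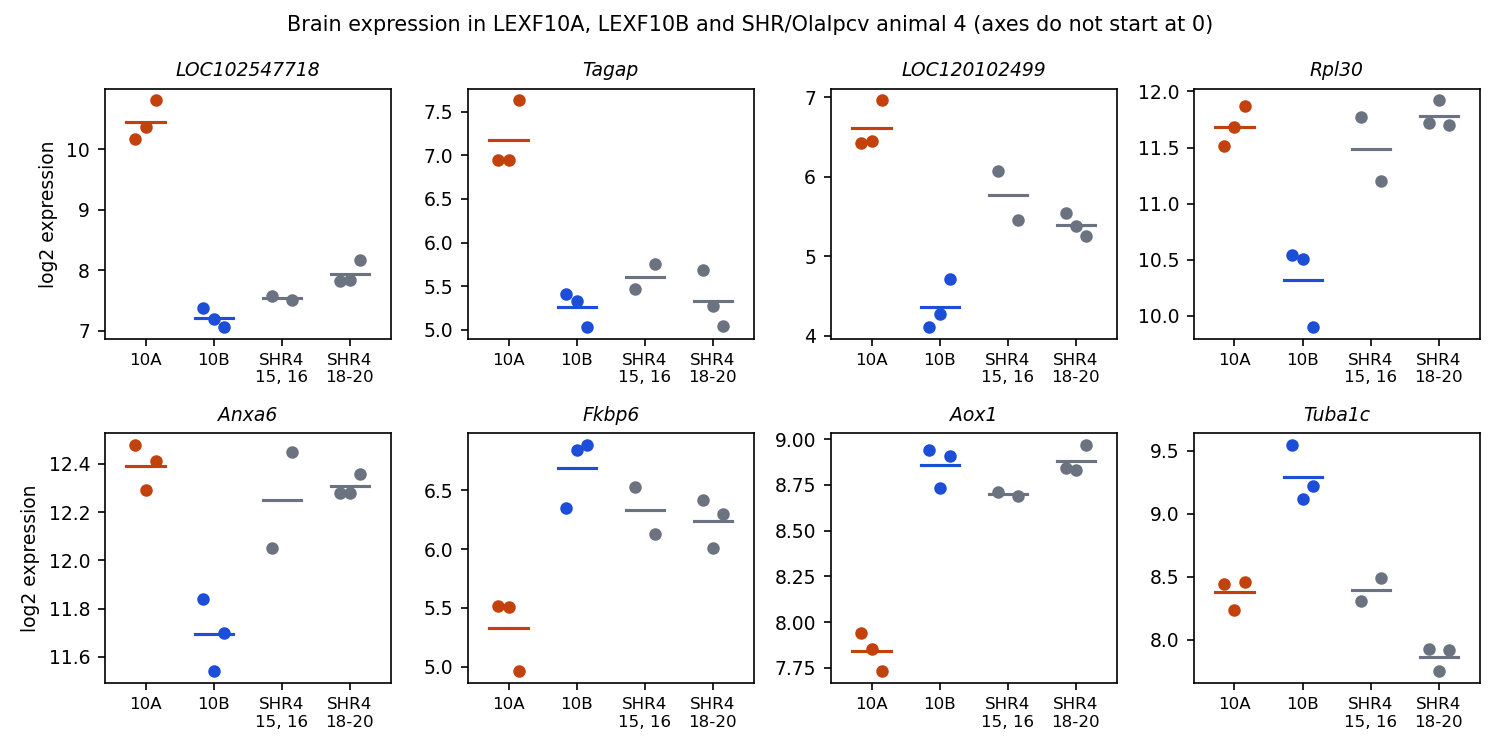
Log2 expression of 8 features in each LEXF10A animal, each LEXF10B animal and the SHR/OlaIpcv animal 4 libraries of batches 15 and 16 and of batches 18 to 20. Points are libraries and bars are means; in every panel the 3 LEXF10A points lie apart from the 3 LEXF10B points, and in Tuba1c the SHR libraries move in the opposite direction.

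The other features described fell outside the naming rule and, apart from 5 that lost the call, were chosen after their values were seen so that the called features are accounted for. Tagap, a GTPase-activating protein known from activated T cells, lies on chr1:47170725-47179740 on the minus strand. It measured 6.95, 6.95 and 7.63 in LEXF10A and 5.41, 5.33 and 5.03 in LEXF10B. The difference of 1.92 (SE 0.19, adjusted p = 1.11e-13) is 3.78-fold, and it was 1.68 after subtraction (adjusted p = 0.000572). The SHR animal 4 libraries lay between 5.04 and 5.92. In the RefSeq gene order of GRCr8, Tagap is followed directly by LOC120099118 and then by LOC102551987, both long noncoding RNAs, and these 2 were higher in LEXF10A as well. LOC120099118 measured 4.19, 4.46 and 4.60 in LEXF10A and 3.40, 3.51 and 3.66 in LEXF10B (difference 0.89, SE 0.18, adjusted p = 0.00133). LOC102551987 measured 6.27, 6.26 and 6.59 in LEXF10A and 5.50, 5.77 and 5.03 in LEXF10B (difference 0.94, SE 0.17, adjusted p = 0.000151). LEXF10A had the highest mean of the 19 family strains at all 3 neighbours. The calls of both noncoding RNAs were lost with batch as a covariate (adjusted p = 0.17 and 0.121) and after subtraction (0.339 and 0.981), with the same direction.

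The starts of Tagap and LOC120099118 are shown because these neighbours run in opposite directions and moved together, and those of Tuba1c and Aox1 because they were the genes named by the rule for which RefSeq gave a promoter. Each line gives the 250 bases before the start in the RefSeq reference GRCr8, read 5′ to 3′ on the gene's strand. The reference is not the sequence of LEXF10A or LEXF10B. Tagap lies at chr1:49583781-49584030 on the minus strand, LOC120099118 at chr1:49588395-49588644, Tuba1c at chr7:132070734-132070983 and Aox1 at chr9:67073641-67073890, the last 3 on the plus strand. Capitals mark matches on either strand to the TATA box TATAAA, the CCAAT box, the GC box GGGCGG, the E-box CACGTG or the STAT-type palindrome TTCNNNGAA.
Tagap: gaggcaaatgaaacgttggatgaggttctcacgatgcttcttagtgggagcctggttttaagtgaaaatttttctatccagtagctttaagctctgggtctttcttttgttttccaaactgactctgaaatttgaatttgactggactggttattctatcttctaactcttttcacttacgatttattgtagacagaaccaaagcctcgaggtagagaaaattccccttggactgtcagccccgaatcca
LOC120099118: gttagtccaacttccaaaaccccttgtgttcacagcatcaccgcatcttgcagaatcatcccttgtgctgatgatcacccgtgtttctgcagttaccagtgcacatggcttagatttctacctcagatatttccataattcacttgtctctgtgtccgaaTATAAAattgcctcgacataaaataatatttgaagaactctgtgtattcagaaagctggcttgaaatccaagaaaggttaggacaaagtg
Tuba1c: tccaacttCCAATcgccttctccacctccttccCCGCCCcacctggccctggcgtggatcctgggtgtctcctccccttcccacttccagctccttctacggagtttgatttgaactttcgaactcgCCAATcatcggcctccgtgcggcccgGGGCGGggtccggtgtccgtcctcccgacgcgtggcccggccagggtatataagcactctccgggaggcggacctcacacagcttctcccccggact
Aox1: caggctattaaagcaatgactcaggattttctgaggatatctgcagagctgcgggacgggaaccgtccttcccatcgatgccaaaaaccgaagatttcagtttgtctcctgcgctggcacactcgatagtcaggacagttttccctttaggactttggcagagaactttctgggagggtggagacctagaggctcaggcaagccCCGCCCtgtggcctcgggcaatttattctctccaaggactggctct
The window of Tuba1c holds the CCAAT box and the GC box, each at 2 places, and 20 CG pairs, against a median of 5 CG pairs over all 33469 promoters. Aox1 has 1 GC box and 9 CG pairs. The LOC120099118 window has 1 match to TATAAA and the Tagap window has none of the 5 motifs, with 4 and 5 CG pairs. The motifs were searched only as written, without variants and without regard to their place in the window. A match is therefore not shown to be a working site, nor its lack to be the absence of one. Over all promoter windows of this length, 12.9% hold the TATA box, 34% the CCAAT box, 30.5% the GC box, 5.59% the E-box and 7.67% the palindrome.

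Long noncoding RNAs gave 8 of the 47 features, beside 29 protein-coding genes and 5 pseudogenes by RefSeq biotype, and 4 features had no RefSeq match. Of the called features with a match 18.6% were long noncoding and 11.6% pseudogenes, against 13.0% and 1.06% of all tested features with a match. LOC102547718, on chromosome 2, had the greatest difference of the 47. It measured 10.17, 10.37 and 10.81 in LEXF10A and 7.38, 7.20 and 7.06 in LEXF10B, a difference of 3.23 (SE 0.39, adjusted p = 7.06e-10). SHR animal 4 moved against this, from 7.58 and 7.51 to 7.82, 7.84 and 8.17, and the subtracted difference was 3.62 (adjusted p = 0.000316). LOC120102499 and LOC120102500 lie on chromosome 4 with 1 gene between them. LOC120102499 measured 6.43, 6.45 and 6.96 in LEXF10A and 4.11, 4.28 and 4.71 in LEXF10B (difference 2.25, SE 0.23, adjusted p = 1.15e-13; 1.78 after subtraction, adjusted p = 0.00648). Its neighbour LOC120102500 measured 3.00, 3.04 and 3.37 against 2.44, 2.08 and 2.10, and its call was lost after subtraction (adjusted p = 0.439). LOC102547989, also on chromosome 4, was higher in LEXF10A by 1.79 (SE 0.24, adjusted p = 8.63e-08) and by 1.66 after subtraction (adjusted p = 0.0332).

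Fkbp6, a member of the FK506-binding protein family that is needed in male germ cells, was lower in LEXF10A. It measured 5.52, 5.51 and 4.96 in LEXF10A and 6.35, 6.84 and 6.89 in LEXF10B. The difference was -1.36 (SE 0.22, adjusted p = 1.98e-05) and -1.51 after subtraction (adjusted p = 0.0332). The other 4 features that were lower in LEXF10A after subtraction were LOC102554288, LOC120096583, RGD1560017 (Rpl17-ps17 in RefSeq) and LOC499235 (Cdv3l1), with main differences of -1.33, -1.51, -1.08 and -1.06. The difference of LOC499235 was -1.61 after subtraction, and its call was lost when LEXF10A replicate 1 or LEXF10B replicate 3 was left out (adjusted p of up to 0.257).

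The 5 largest differences that lost the call after subtraction included the opposite copy of Rpl30 named above and 3 pseudogenes, whose reads can also come from their parent genes. LOC691309 (Slc25a5-ps9) was higher in LEXF10A by 2.27 (adjusted p = 1.95e-05), and SHR animal 4 differed there by 0.01. LOC685431 (Eno1-ps6) was lower by -1.60 (adjusted p = 0.000232), with 5.93, 5.71 and 5.49 in LEXF10A and 7.12, 7.59 and 7.22 in LEXF10B. LOC100362999 (St13-ps2) was lower by -1.72 (adjusted p = 0.00202), and SHR animal 4 also differed, by -0.51. RGD1563294 was lower by -2.88 (adjusted p = 3.44e-05), and the SHR animal 4 difference was -0.50. After subtraction the differences were 2.17 for LOC691309, -1.81 for LOC685431, -2.18 for LOC100362027, -2.40 for RGD1563294 and -1.10 for LOC100362999, with adjusted p-values between 0.132 and 1.

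Among the other genes with a symbol, Ubash3a, a suppressor of T cell receptor signalling, was higher in LEXF10A by 0.95 (adjusted p = 0.00964). Mx2, an interferon-induced GTPase, was higher by 0.70 (adjusted p = 0.0302), and so were Slc9a4, a sodium/proton exchanger, and Llph, a nucleolar protein, both by 0.70. The cartilage glycoprotein gene Cnmd was higher by 1.13, the F-box gene Fbxw10 by 0.52 and Rnf11l2 by 0.73. Lower in LEXF10A were the peroxisomal thiolase Acaa1b (-1.14), the carbonyl reductase Cbr1 (-0.53), the alkaline ceramidase Acer2 (-0.46), the mitochondrial nucleotidase Nt5m (-0.39), the mitochondrial ribosome assembly factor Eral1 (-0.35) and the histone gene Hist1h2bo (-0.72). Their adjusted p-values ranged from 4.25e-05 for Slc9a4 to 0.0499 for Acer2, and none held after subtraction, where Eral1 was at -0.21. Slc9a4, Llph, Fbxw10, Acaa1b and Acer2 also passed with batch as a covariate.

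SHR animal 4 moved in the direction of the sublines at 21 of the 47 features, and by more than 50% of the subline difference at Ak1 and Fbln2. Adenylate kinase 1 measured 11.69, 11.54 and 11.53 in LEXF10A and 12.14, 12.10 and 12.12 in LEXF10B, and 11.71 and 11.98 against 12.19, 12.16 and 12.19 in the same periods of SHR animal 4. Fbln2, an extracellular matrix gene, measured 8.61, 8.53 and 8.02 in LEXF10A and 9.23, 9.22 and 9.01 in LEXF10B, and 8.73 and 9.10 against 9.46, 9.67 and 9.37 in SHR animal 4. The subtracted differences were -0.15 and -0.12.

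The remaining called features carried provisional symbols. Those higher in LEXF10A were LOC678760 (Dpp3l1, 1.36), LOC120101770 (1.09), LOC103690059 (Mgam, 0.85), LOC120097131 (0.79), LOC102548800 (Zfp866l1, 0.79) and LOC100359937 (Gabarapl3, 0.75). Those lower were LOC100359876 (-1.32), LOC120095890 (-1.02), RGD1561381 (-0.86) and LOC108352946 (-0.77). None of these 10 held after subtraction, and the difference of LOC120101770 was 0.67 with batch as a covariate. In all, 32 of the 47 features had a mean under the table's median of 8.32.

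The sublines were also set beside the progenitors. F344/Stm (3 animals) and LE/Stm (1 animal) differed at 166 features (0.796% of the table) and at 9 of the 47, which is 19.1%. The 9 were Tagap, LOC120102499, LOC120102500, LOC120095890, Fkbp6, Tuba1c, Aox1, Cbr1 and LOC102554288. At 7 of them the sublines lay nearer to different progenitors. In F344/Stm the level of Tagap was 5.94 ± 0.38 (SD, n = 3), and the LE/Stm animal was at 7.04, with LEXF10B (5.26) nearer to F344/Stm and LEXF10A (7.17) nearer to LE/Stm. LOC120102499 had the same arrangement, with 5.10 ± 0.03 in F344/Stm against 6.80 in LE/Stm. In Fkbp6 the arrangement was the converse, since F344/Stm (5.76 ± 0.14) was near LEXF10A (5.33) and LEXF10B (6.69) was nearer to LE/Stm, the difference of F344/Stm minus LE/Stm being -1.34. Cbr1 was 9.50 ± 0.04 in F344/Stm and 8.79 in LE/Stm, beside 8.96 in LEXF10A and 9.49 in LEXF10B. At Aox1 and LOC102554288 both sublines were nearer to F344/Stm. Over the 47, LEXF10A was nearer to F344/Stm and LEXF10B nearer to LE/Stm at 19 features, and the converse held at 21. The sublines were thus nearer to different progenitors at 40 of the 47. These features were chosen because the sublines differ, which by itself favours such an arrangement, so that the counts do not show which progenitor alleles the sublines carry. The LE/Stm values rest on 1 library, and the test assumes that this animal varies like those of the other strains. Neither progenitor shared a sequencing batch with either subline, so that batch cannot be told apart from strain when their levels are set beside each other.

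Against the other 17 FXLE/LEXF strains, LEXF10B lay outside the range of strain means at 23 of the 47 features (48.9%) and LEXF10A at 12 (25.5%), with 1 feature in both counts. Over all features tested the shares were 6.41% for LEXF10B and 17.9% for LEXF10A. The 47 were chosen for a difference between the sublines, which by itself moves a subline towards the edge of the family. The shares over all features do not measure what this choice alone would give. LOC685431 was at 5.40 to 6.04 in the other strains, at 5.71 in LEXF10A and at 7.31 in LEXF10B, and its progenitors were at 5.85 and 5.90. LOC120096583 was at 2.78 to 3.67 in the other strains and at 4.56 in LEXF10B. At these features LEXF10B stood apart from family and progenitors, whereas LEXF10A did not. LOC102547718, by contrast, fell into a low and a high set of strains, and the sublines were in different sets, although the progenitors (9.65 ± 0.31 and 9.75) were alike.

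**Figure D3:**
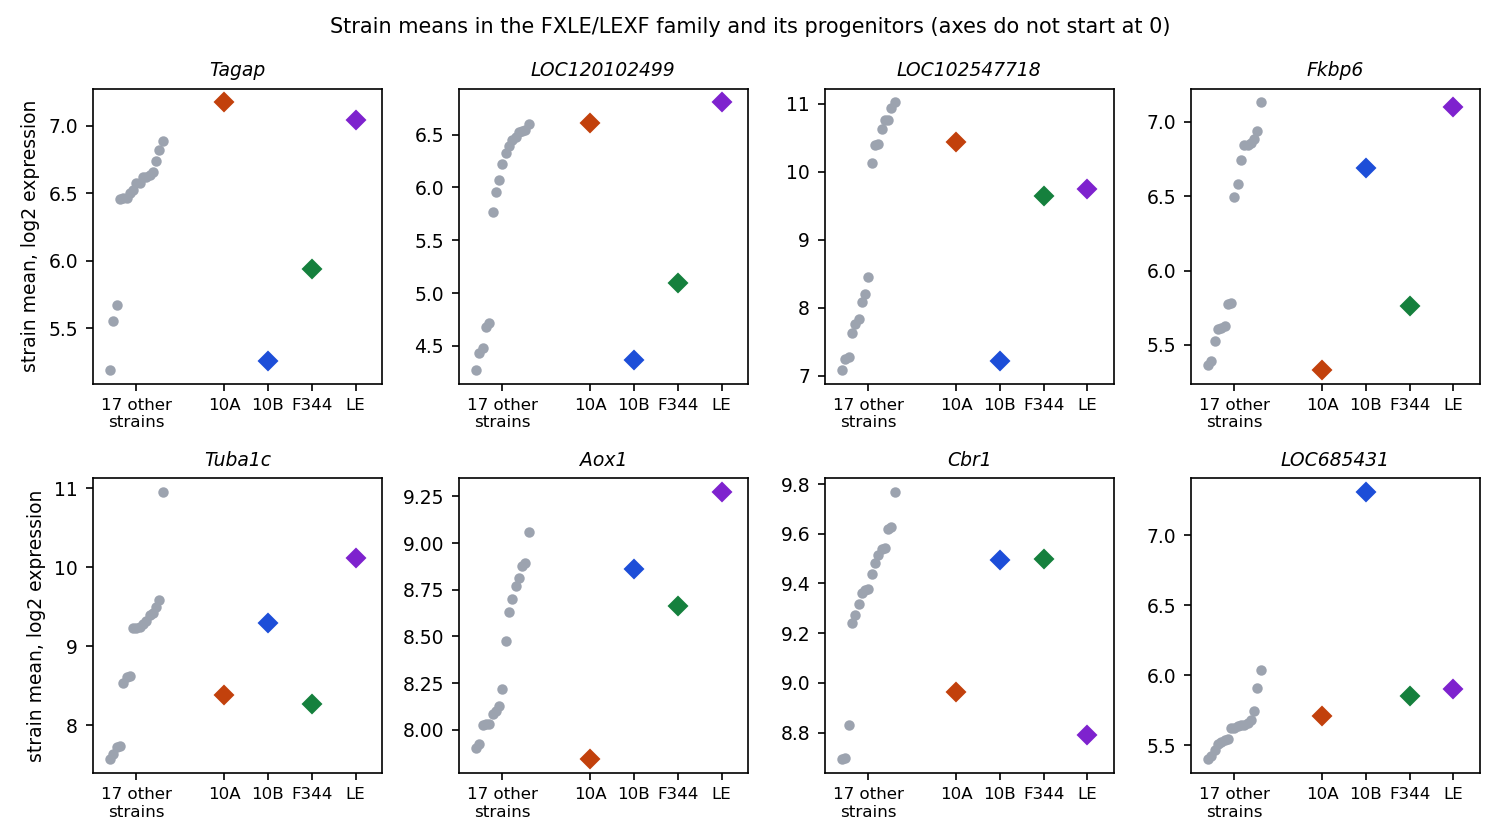
Strain means (log2) of 8 features in the other 17 FXLE/LEXF strains (grey, sorted), LEXF10A, LEXF10B and the progenitors F344/Stm and LE/Stm (diamonds). In Tagap and LOC120102499 LEXF10A is near LE/Stm and LEXF10B near F344/Stm, in Fkbp6, Tuba1c and Aox1 LEXF10A is the lower subline, and in LOC685431 LEXF10B is above all others.

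The LEXF10 count was set beside those of other strain pairs in the same fit. The family has 14 other pairs in which both strains have 3 animals and 1 strain was sequenced in batches up to 17 and the other in batches 18 to 20. These pairs gave between 61 features (0.292%, FXLE12 and LEXF2C) and 280 (1.34%, FXLE20 and LEXF7B), with a median of 131.5. None had as few as the 47 of LEXF10A and LEXF10B, and none of all 27 other pairs with 3 animals each did. This order was lost in the table of reconstructed genes, where 5 of the 14 pairs had no more than the 138 features of the LEXF10 pair. With batch as a covariate the pairs across periods ranged from 59 to 1903, against 38 for the LEXF10 pair. Differences over all features did not set the pair apart. Its median absolute difference of 0.10 was at or above that of 8 of the 14 pairs. Pairs share strains, so that the counts are not independent and no test was made.

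**Figure D4:**
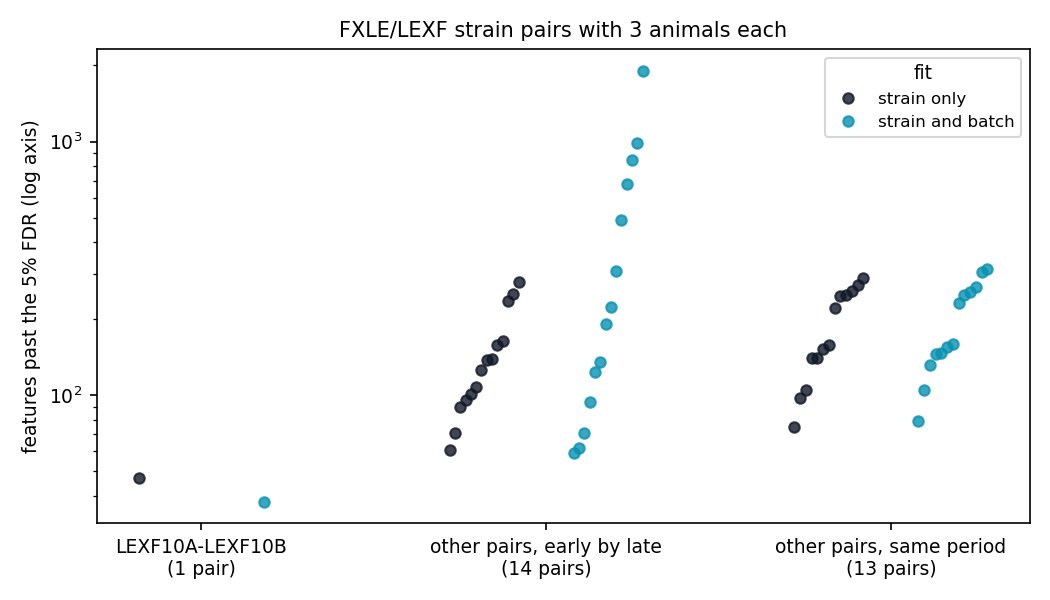
Number of features past the 5% FDR (log axis) for every FXLE/LEXF strain pair with 3 animals in each strain, in the fit with strain only (black) and with strain and batch (blue). Early stands for batches up to 17 and late for batches 18 to 20; the LEXF10 pair, at 47 and 38, lies under all other pairs in its own fit.

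Of the other LEXF pairs that share a number, LEXF1A and LEXF1C (2 animals each) differed at 14 features (0.0671%) and LEXF2B and LEXF2C (1 and 3 animals) at 19 (0.0911%). These pairs have fewer animals than the LEXF10 pair. Over all 65 other LEXF pairs, of 1 to 3 animals a strain, the counts ran from 14 to 3019 with a median of 79. The highest count was that of LEXF10A and LEXF1C, which had 121 with the within-strain component as a covariate, where the 65 pairs ran from 10 to 844. With strain only, 18 of the pairs were at or below 47, as were 3 of the 44 with at least 2 animals a strain. At 58 features whose variance among the other 17 strains lay for over 90% between strains, the strain means of LEXF10A and LEXF10B correlated at 0.62 over features, which was the third highest of the 66 LEXF pairs (LEXF2C and LEXF7B 0.79, LEXF1A and LEXF1C 0.69). LEXF2B and LEXF2C, which also share a number, were at -0.24. Each of the 6 animals was closest to an animal of its own subline (r with the closest animal between 0.83 and 0.96). The 58 features were chosen to vary little within strains, and animals of a subline share a sequencing period. Both favour this closeness in advance.

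Features that fall into 2 sets of strains were used to ask how often the sublines are on the same side. With a gap of at least 1 between the sets and at least 3 of the other 17 strains in each, 16 features qualified, and LEXF10A and LEXF10B were on the same side at 10 of them (62.5%, exact 95% binomial interval 35.4 to 84.8%). The interval takes the features as independent, which neighbouring features that are inherited together are not. The median of the other 65 LEXF pairs was 63.6%. A gap of 0.5 left 60 features with 46 on the same side (76.7%), where the median of the other pairs was 55.4%, and 3 of them were at or above the LEXF10 pair. LEXF1A and LEXF1C shared 89.4% and LEXF2B and LEXF2C 78.5% at this gap. Of the 14 features on opposite sides, which differ between the sublines by construction, 7 were among the 47 called features (0.225% of the table).

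Cell type and pathway lists were read for the same contrast. In 30 lists with a measured member, 341 genes were measured and 1 of them, Mx2, passed the test (0.293%), near the 0.225% of all features. The list medians ranged from -0.26 to 0.32, beside 0.01 over all features. The highest was the median of 10 choroid plexus markers, genes of the epithelium that secretes cerebrospinal fluid, of which 9 were higher in LEXF10A, with Ttr at 13.76, 13.46 and 14.41 against 13.50, 13.58 and 13.07 (adjusted p = 0.62). The mean choroid plexus level ranged from 8.53 to 8.81 in LEXF10A and from 8.19 to 8.56 in LEXF10B, so that the groups overlapped. The mean level of 10 astrocyte markers was 12.46 to 12.74 in LEXF10A and 12.76 to 12.84 in LEXF10B, and those of myelin (13.91 to 13.96 against 13.97 to 14.03), microglia (9.37 to 9.51 against 9.53 to 9.54) and brain endothelium (9.97 to 10.17 against 10.18 to 10.25) were also lower in each LEXF10A animal, with no marker past the test. Such a lack of overlap was found at 16.8% of single features, which gives no background for means of several markers. The median differences of microglia and myelin markers were -0.10 and -0.06, and turned to 0.03 and 0.01 after subtraction, while those of astrocytes (-0.15, then -0.12) and endothelium (-0.10, then -0.05) kept their direction. Their part in the differences at the 47 features was not tested. After subtraction the highest list median was that of 10 blood genes, at 0.59 (0.09 before, with an SHR animal 4 median of -0.50), followed by choroid plexus (0.38) and olfactory bulb (0.35, -0.02 before), and meninges and collagen genes moved from -0.02 to 0.23. In bulk tissue fewer cells of a type and less RNA per cell cannot be told apart. Of 20 interferon-stimulated genes 15 had a positive difference and the median was 0.15, with Ifit1 at 6.68, 6.28 and 7.07 in LEXF10A and 5.29, 6.34 and 5.88 in LEXF10B. The median of this list was -0.02 with batch as a covariate and 0.08 after subtraction. All 14 GABA-A receptor subunits, which form inhibitory chloride channels, had a positive difference with a median of 0.16, and SHR animal 4 had a median of 0.16 for the same list. The median of the list was -0.05 after subtraction. All 12 hindbrain Hox genes, which mark the posterior end of the brain, were on the lower side in LEXF10A with a median of -0.25, and the median was -0.03 with batch as a covariate and -0.07 after subtraction. The 3 pituitary and 3 pineal markers measured also had negative differences, with medians of -0.26 and -0.21 that became 0.06 and 0.08 after subtraction. Of 9 cerebellum genes 2 had a positive difference. Their median was -0.21, and it was -0.19 with batch as a covariate and -0.14 after subtraction. Immediate early genes, which follow neuronal activity, had a median of -0.13, with Junb at 8.79, 8.85 and 9.20 against 9.63, 9.77 and 9.33 (adjusted p = 0.561). For alcohol and aldehyde metabolism, of interest in this panel, none of the 14 listed genes passed and the median was -0.06. The list does not hold Aox1 and Cbr1, which passed.

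The table of genes reconstructed from the reads, which includes unannotated transcripts, gave more calls from the same 6 animals. Of 84209 features 138 passed (0.164%), 91 higher and 47 lower in LEXF10A, and with SHR animal 4 subtracted 20 passed (0.0238%), of which 19 were among the 138. Of the 47 RefSeq features, 19 had a reconstructed gene of the same symbol, and in 18 of these the most abundant one had the same sign. Ubash3a was the exception, with 5.63, 5.59 and 6.21 in LEXF10A and 5.81, 5.91 and 5.81 in LEXF10B. Tagap (2.50, adjusted p = 2.2e-09), Rpl30 (2.39, adjusted p = 3.93e-11) and Aox1 (-1.36, adjusted p = 5.81e-07) passed, while Anxa6 had 0.67 with an adjusted p of 0.198. In all, 8 of the 19 passed. Outside these 19, a model that joins Tuba1c with LOC120093942 also passed (-1.40, adjusted p = 0.0185). After subtraction Tagap (adjusted p = 0.00358) and Rpl30 (3.12e-06) held in this table, while Aox1 (-0.99, adjusted p = 0.892) and the Tuba1c model (-1.58, adjusted p = 0.935) lost the call.

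Calls lay side by side on some chromosomes. With gaps of under 1 Mb joined, 36 of the 138 fell in 11 runs of 2 or more. On chr1:47154236-47273314 all 6 called features of 13 tested were higher in LEXF10A, by 1.26 to 2.50. They comprised Tagap and 5 models without a symbol, which lay on the opposite strand. On chr2:87194916-88081671 all 6 called features of 55 were higher in LEXF10A, by 1.64 to 3.11. Among these was a model of 3 exons in Ralyl, an RNA-binding protein gene, with 9.69, 10.26 and 9.97 in LEXF10A and 7.73, 6.93 and 6.89 in LEXF10B, which also held after subtraction (adjusted p = 0.0484). On chr4:129086996-129420539 called features of both directions lay next to each other, 2 higher and 5 lower in LEXF10A of 31 tested, all on the minus strand. The longest of them, of 22 exons, measured 6.53, 6.74 and 6.32 in LEXF10A and 9.05, 9.00 and 8.41 in LEXF10B (difference -2.29, SE 0.32, adjusted p = 2.58e-07; 0.00555 after subtraction). Of the 19 called models in these 3 runs, Tagap, the Ralyl model and the model of 22 exons held after subtraction, and the other 16 lost the call (adjusted p of 0.0529 or more). Models that overlap can share reads, and the number of models in a run is therefore not a number of independent genes.

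**Figure D5:**
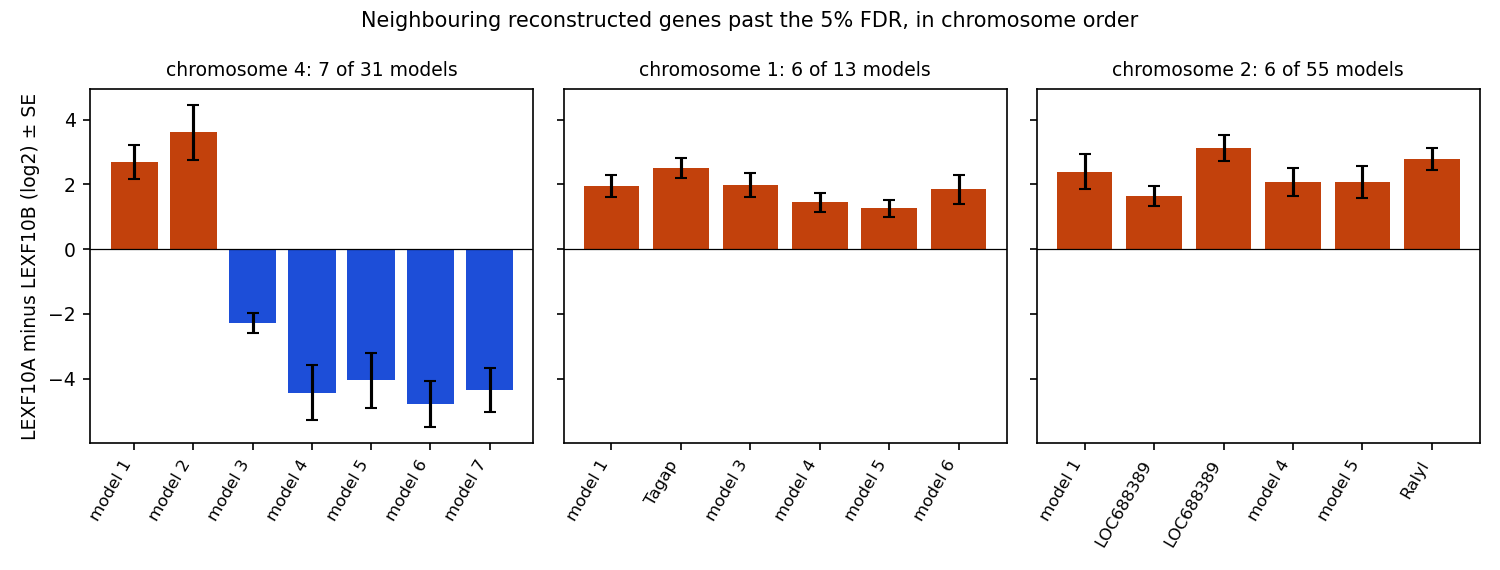
Difference between LEXF10A and LEXF10B (log2, bars, with the SE of the model) at the called reconstructed genes of the 3 longest runs, in order along the chromosome and with even spacing. All bars of the chromosome 1 and chromosome 2 runs point towards LEXF10A, and the chromosome 4 run holds 2 bars up and 5 down.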

How the data were processed

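Total RNA of rat brain was depleted of ribosomal RNA and sequenced on a strand-specific protocol. The deposited tables hold log2 values per gene and library. Cutadapt, Bowtie2, HISAT2, StringTie, RSEM and DESeq2 are named in the submitters' processing notes, and the LEXF10B notes name later versions of some tools (RSEM 1.3.3 against 1.3.1 in LEXF10A, HISAT2 2.2.1 against 2.1.0), a difference that cannot be told apart from strain. The study's methods were written for an earlier set of strains. They describe alignment to a separate genome for each strain, the RN6 build with SNPs from the authors' DNA sequencing. They also describe removal of an unwanted factor for batch and a regularized log transformation. Whether this holds for the tables used here, of version 7.1, is not given in the sources used here.

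From the RefSeq gene table, 73 spike-in features and 3 features with a value over 30 were left out. Libraries of 1 animal were averaged, and the strain contrast was fitted with limma 3.58.1 (R 4.3.3) over 197 animals, with empirical Bayes moderation and Benjamini-Hochberg adjustment over 20856 features. Two-sided p-values rest on the spread between animals within strains, pooled over all strains for each feature. Animals of a strain were often in different batches, so that this spread mixes animal and batch. It does not measure the difference between the sequencing periods of the sublines. A further fit over 214 libraries had strain and batch as factors and the animal as a random block. In another, the same contrast in SHR/OlaIpcv animal 4 was subtracted. The scripts were tested on simulated data.

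Genes named by rule had a symbol that was not provisional, a mean above the table's median, a pass in all 3 fits and no overlap between animals, and beside them stand the 5 largest differences that lost the call. The members, lists and rules were chosen with earlier results of these data known. Symbols of 19544 features, and of 43 of the 47 called, were matched to RefSeq. Same-numbered animals of the sublines deviated together (r = 0.15, 0.19 and 0.16 over features, each highest with its own number). These values rest on 3 animals a subline and cannot decide whether the animals were paired, and the sublines share no batch. The main fit did not pair them, and the replicate number was a block only in an alternative. Of the 47 called features, 1 is counted but not reported by name here. Alternatives are given in the closing section. In the table of reconstructed genes 2 columns that matched no sample were not used.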

Additional observations from a re-analysis of the deposited data

Results flagged for a closer look

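At 13 features the difference between LEXF10A and LEXF10B differed from that of SHR/OlaIpcv animal 4 between the same batches (limma, 5% FDR on the difference itself). They are the features that held after subtraction, 6 higher and 7 lower in LEXF10A, with an absolute subline difference of at least 0.70.

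Single SHR animal 4 libraries stood apart from the other 5 at 3 of the 47 features. LOC120102500 was at 2.14 in batch 19 and between 2.42 and 2.55 in the others. RGD1560017 was at 3.28 in batch 16 and between 2.47 and 2.73 in the others. Batch 16 is in the subtracted contrast, where the difference of RGD1560017 was -1.37 against -1.08 without subtraction. RGD1563294 was at 5.02 in batch 17, which is not in the subtracted contrast, and between 2.82 and 3.51 in the others. Chance flags about 5% of groups by this rule.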

How the results depend on the processing

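The count of 47 features became 13 with SHR animal 4 subtracted, 12 when only features above the table's median level were tested and 138 in the table of reconstructed genes. Of the 47, 32 were under that median and so were not tested above it, and all 12 were among the 47. The count became 71 with the within-strain component as a covariate, an alternative chosen after seeing the data, and 43 of the 71 were among the 47. Leaving out 1 animal gave between 30 and 42 features, with 30 without LEXF10A replicate 3 and 31 without LEXF10B replicate 3. Other settings gave 38 to 52. Centring each library gave 51, 28 of them higher in LEXF10A. With the replicate number as a block 48 features passed, all 47 among them, and the block changed no call of the 47. Of 720 combinations of a called feature and a setting of the RefSeq table, 545 kept the call, 175 lost it and 0 turned the direction. In many of these combinations the direction could not turn. Several settings leave the difference itself unchanged, and leaving out 1 animal cannot turn it where the animals do not overlap. In the settings of the RefSeq table, which leave out the reconstructed genes, 11 features passed under every setting run. Of the 11, Tagap, Rpl30 and Aox1 also passed as reconstructed genes, while Anxa6 (adjusted p = 0.198), Fkbp6 (0.383) and RGD1560017 (0.65) did not. The cause of each lost call was not tested. For SHR animal 4, 2 features passed when its batch 17 library was added, and 0 to 2 when a library was left out, with 1 without batch 16 and 2 without batch 18. The median count of 131.5 of the other strain pairs became 206.5 with batch as a covariate, 33 above the median level and 201 in the reconstructed table, where 5 of the 14 pairs were at or below the 138 of the LEXF10 pair. The share of features on the same side ranged from 62.5 to 76.7% and the number of called features with a progenitor difference from 9 to 12 over their alternatives. The depth is unknown, and 3 animals a subline, each strain in its own batches, limit the precision.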
